A study of Rattus norvegicus with 4 samples.

Results

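The genes described are 8 that are counted as genes of macrophages and related myeloid cells, measured in cultures of rat heart cells given an omega-3 fatty acid: Lyz2, Mmp12, Ceacam4, Tyrobp, Cd14, C1qb, Fcgr2b and Cd68. They were found by gene symbol and have 10 of the 20500 measured probes, with 2 probes each for Lyz2 and Mmp12 and 1 for each other gene. The genes were chosen by their log ratios on these same arrays, on which Lyz2, Mmp12 and Ceacam4 stood well below control, so the values below describe them and no test of them is given. Primary cultures were made from the heart ventricles of newborn Wistar rats. Control cultures grew in HAM F10 medium with horse serum and fetal calf serum, each at 10%, and the supplemented cultures grew in that medium plus eicosapentaenoic acid (EPA) or docosahexaenoic acid (DHA) at 60 µM. All cultures were harvested at confluence, with medium renewed every 48 h; no source used here gives the sex or number of animals or any removal of other heart cells. Each of 4 arrays carried labelled RNA of supplemented cells in one dye and of control cells in the other, with EPA or DHA in Cy5 on array 1 and in Cy3 on array 2.

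Macrophages live in the heart from before birth and are carried into primary cultures of heart cells. They take up particles and antibody-coated targets through Fc and complement receptors, sense bacterial lipopolysaccharide, digest cargo in lysosomes and secrete lysozyme and proteases. In mammals many of their genes depend on the transcription factor PU.1, which binds a purine-rich motif around GAGGAA, and the factor AP-1, which binds TGAGTCA, acts on several protease genes.

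The RefSeq promoter table (rat build GRCr8) held 6 of the 8 genes, all but Tyrobp and Fcgr2b. The 250 bases before the annotated start are shown for the 3 genes furthest below control and for Cd68, the one with a mean above control. Capitals mark GAGGAA or its reverse complement and TGAGTCA, read on either strand.
Lyz2, chr7:54798012-54798261, minus strand: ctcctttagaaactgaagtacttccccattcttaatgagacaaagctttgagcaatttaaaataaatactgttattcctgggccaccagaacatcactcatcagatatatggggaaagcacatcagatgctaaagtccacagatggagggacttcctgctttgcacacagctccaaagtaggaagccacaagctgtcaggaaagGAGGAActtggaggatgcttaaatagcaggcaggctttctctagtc
Mmp12, chr8:12866402-12866651, plus strand: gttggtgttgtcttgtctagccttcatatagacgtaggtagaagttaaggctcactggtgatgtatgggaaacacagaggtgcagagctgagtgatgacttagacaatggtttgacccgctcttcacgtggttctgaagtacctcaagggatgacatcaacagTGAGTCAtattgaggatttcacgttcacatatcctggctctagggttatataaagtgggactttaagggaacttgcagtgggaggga
Ceacam4, chr1:89504305-89504554, plus strand: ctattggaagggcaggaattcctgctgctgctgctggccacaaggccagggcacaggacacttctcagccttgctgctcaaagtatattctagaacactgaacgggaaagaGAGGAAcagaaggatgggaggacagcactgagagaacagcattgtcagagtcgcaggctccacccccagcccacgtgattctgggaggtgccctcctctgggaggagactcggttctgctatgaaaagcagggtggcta
Cd68, chr10:54882442-54882691, minus strand: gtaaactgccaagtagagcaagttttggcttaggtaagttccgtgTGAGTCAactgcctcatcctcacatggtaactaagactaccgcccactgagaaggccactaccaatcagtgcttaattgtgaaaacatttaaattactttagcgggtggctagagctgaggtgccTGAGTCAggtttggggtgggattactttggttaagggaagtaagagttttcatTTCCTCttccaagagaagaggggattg
GAGGAA was present in 5 of the 6 promoters, those of Lyz2, Ceacam4, Cd14, C1qb and Cd68, and in 23.3% of the 33469 promoters in the table. Mmp12 was the one without it. The longer form GAGGAAGT was in 0 of the 6 and in 2.04% of all promoters. TGAGTCA was found in those of Mmp12 and Cd68, against 4.05% of all. Mmp12 also held TATAAA, as did 12.9% of all promoters, and Lyz2 held TTGCNNAA, a motif of the C/EBP factors of myeloid cells, as did 9.22%. The letters did not separate genes by their ratios: Cd68 carried both marked motifs, and Mmp12 lacked GAGGAA while Lyz2 and Ceacam4 had it. These matches are descriptions of sequence and show no binding.

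Values are the authors' deposited log ratios, set to a median of 0 on each array and read as log2 of fatty acid over control. Neither the log base nor the direction is stated. The direction is likely rather than known. All 4 sample titles name the supplemented cells. Cpt1b, an enzyme gene that fatty acids induce in heart, stood at 0.93 and 0.88 on EPA arrays 1 and 2. On DHA arrays 1 and 2 it stood at 1.3 and 0.98. Its DHA mean of 1.14 was the highest of the 9653 named genes, and Cpt1b was named after its values were seen. Over all probes the deposited values of the 2 arrays of a swap correlated at -0.11 for EPA and -0.03 for DHA (Pearson's r across probes, which are not independent replicates), which does not settle the direction. If the table ran the other way, every direction below would turn, and in base 10 every fold would be larger. Each fatty acid is treated as 1 RNA sample against 1 control RNA, because no label tells if the arrays of a swap hold separate extracts, so there is no replicate check, and errors are the half-difference of the 2 arrays. On DHA array 1, 1084 values lay below -1, and 1076 of them were in the first 66 columns of the array grid inferred from feature numbers, which hold 30.6% of the probes. The probes of Tyrobp and Fcgr2b lie in those columns and the other 8 do not. Ratios carry no level, so whether macrophage or cardiomyocyte transcripts were abundant in these cultures could not be checked.

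The 8 genes ranged from well below control to near it, with no clean split between them. Lyz2, Mmp12 and Ceacam4 had swap means between -0.64 and -0.74 with EPA and between -0.77 and -0.84 with DHA. Tyrobp stood at -0.14 with EPA and at -1.08 with DHA, the latter mostly through array 1. Cd14, C1qb and Fcgr2b had means between -0.14 and -0.35 with either fatty acid, and Cd68 was at 0.025 with EPA and 0.062 with DHA. In bulk RNA a lower ratio cannot tell fewer macrophages from less transcript in each of them.

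**Figure D1:**
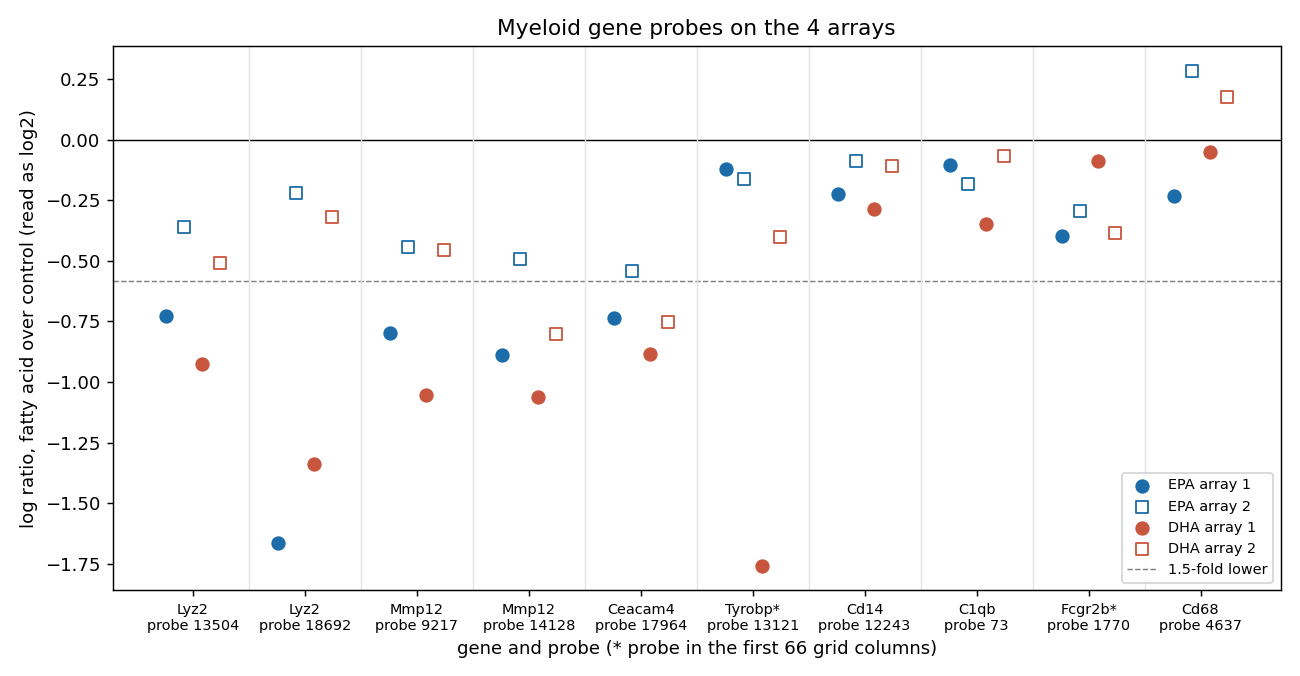
Log ratio (fatty acid over control, read as log2) of the 10 probes of the 8 myeloid genes on each of the 4 arrays; filled circles are arrays 1, open squares arrays 2, blue EPA and red DHA, and the dashed line marks 1.5-fold lower. Both probes of Lyz2 and of Mmp12 and the probe of Ceacam4 lie below 0 on every array, while Cd68 lies below 0 on arrays 1 and above 0 on arrays 2.

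Lyz2 encodes the lysozyme of macrophages, which cleaves bacterial cell walls, and in mouse it is a standard marker of myeloid cells. With EPA its probe 13504 stood at -0.73 on array 1 and -0.36 on array 2, and with DHA at -0.93 and -0.51. Probe 18692 of Lyz2 stood at -1.66 and -0.22 with EPA and at -1.34 and -0.32 with DHA, again array 1 first. Both probes were thus below control on all 4 arrays and much lower on arrays 1 than on arrays 2. The value of -1.66 was the lowest of all 20500 probes on EPA array 1, and the same probe ranked 1700 from the bottom on EPA array 2. The swap means of probe 13504 were -0.54 ± 0.18 with EPA and -0.72 ± 0.21 with DHA, or 1.46-fold and 1.65-fold lower. Those of probe 18692 were -0.94 ± 0.72 and -0.83 ± 0.51, so its large mean came mostly from arrays 1.

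The probes of Lyz2 share an accession and differed by 0.93 on EPA array 1. Among 788 genes with 2 probes, both outside the first 66 columns, the median difference there was 0.15, and 99.6% of these genes had a smaller one. The probes of Lyz2 differed by 0.14 on the other EPA array, and with DHA by 0.41 on array 1 and 0.19 on array 2. They therefore give the same side of 0 on each array but different sizes. Averaged over its probes, Lyz2 had the lowest EPA mean of the 9653 named genes, at -0.74 ± 0.45, yet by the less negative of its EPA arrays it ranked 40 from the bottom. With DHA it ranked 254 by the mean and 12 by the less negative array. The rank by the DHA mean counts genes with a probe in the first 66 columns, which hold the long negative tail of DHA array 1.

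Mmp12 encodes macrophage metalloelastase, a secreted protease that degrades elastin. With EPA its probe 9217 stood at -0.80 on array 1 and -0.44 on array 2, and with DHA at -1.06 and -0.46. Probe 14128 of Mmp12 stood at -0.89 and -0.49 with EPA and at -1.06 and -0.80 with DHA. All 8 values lay below control by more than 1.3-fold, with arrays 1 lower than arrays 2 at both probes. The mean over probes was -0.66 ± 0.19 with EPA, 1.58-fold lower, and -0.84 ± 0.21 with DHA, 1.79-fold lower. Among the 9653 named genes Mmp12 ranked 3 from the bottom by the mean with EPA and 201 with DHA. By the less negative array of a swap it ranked 4 with EPA and 3 with DHA. Outside the first 66 columns, with medians set to 0 there, the lowest DHA mean of 6096 named genes was -0.87, that of Mmp12. With EPA the probes differed by 0.09 on array 1 and 0.05 on array 2, and with DHA by 0.0062 and 0.34.

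Ceacam4 belongs to the carcinoembryonic antigen family of immunoglobulin-like surface proteins, and its human namesake is a phagocytic receptor of granulocytes. The gene table gives Ceacam10 as another name of the rat gene. With EPA its single probe stood at -0.74 on array 1 and -0.54 on array 2, and with DHA at -0.88 and -0.75. These were the most even values among the 3 low genes, with half-differences of 0.097 around a mean of -0.64 with EPA (1.56-fold lower) and of 0.066 around -0.82 with DHA (1.76-fold lower). By the less negative array of a swap, Ceacam4 ranked second lowest of the 9653 genes with EPA and lowest with DHA. By its mean it ranked 4 from the bottom with EPA and 226 with DHA. On DHA array 1 its probe ranked 1212 from the lowest. These DHA ranks count the first 66 columns, which hold 1076 of the 1084 values below -1 on that array.

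A gene was counted as lower when both arrays of a swap gave at least 1.5-fold. With EPA 0 of the 8 genes met this rule, as did 0 of all 9653 genes (0.0%); Ceacam4, Mmp12 and Lyz2 passed it on array 1 alone. With DHA 2 of the 8 genes met it, Mmp12 and Ceacam4, against 0.0414% of all genes. Of the 10 probes 2 met it with DHA, 14128 of Mmp12 and that of Ceacam4, against 0.0244% of all probes, while probe 9217 of Mmp12 did not. In the other direction 0 of the 8 genes were 1.5-fold higher on both arrays of a swap, where 0.0311% of all genes were with EPA and 0.0414% with DHA. At 1.3-fold 2 of the 8 genes were lower with EPA, again Mmp12 and Ceacam4 (background 0.0829%), and 4 with DHA, which added Lyz2 and Tyrobp (background 0.238%). Because the genes were chosen with these values known, nothing is read from their counts against the background. If the table ran Cy5 over Cy3, 0 of the 8 genes would meet the 1.5-fold rule with either fatty acid, the mean of Ceacam4 would be -0.097 ± 0.64 with EPA and -0.066 ± 0.82 with DHA, and the values would be read as following the dye.

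**Figure D2:**
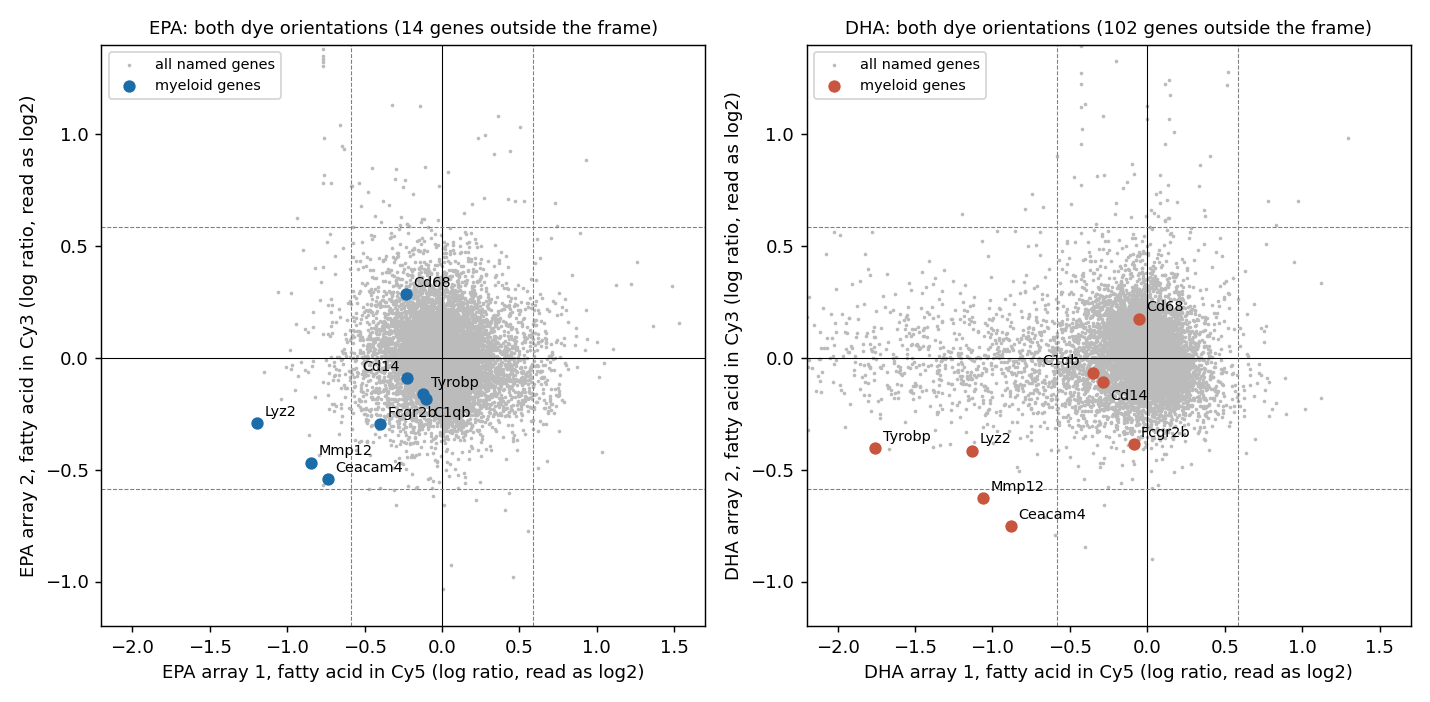
Log ratio on array 1 (x axis, fatty acid in Cy5) against array 2 (y axis, fatty acid in Cy3), both read as log2, for all named genes (grey) and the 8 myeloid genes (coloured), with EPA on the left and DHA on the right and dashed lines at 1.5-fold. Mmp12 and Ceacam4 lie in the lower left corner with DHA and just short of the line on array 2 with EPA.

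Tyrobp encodes the adaptor also called DAP12, which carries an activating motif (ITAM) and signals for TREM2 and other myeloid receptors. It stood at -0.12 on EPA array 1 and -0.16 on EPA array 2. With DHA it was at -1.76 on array 1 and -0.40 on array 2. The 4 values lay below control, but the DHA mean of -1.08 ± 0.68 rests on array 1, where its probe lies in the grid columns with the long negative tail, and the part of that tail in this value was not tested. With a local median of neighbouring grid columns removed, its DHA mean was -0.87 ± 0.58 and its EPA mean -0.28 ± 0.11.

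Fcgr2b encodes the inhibitory Fc receptor for immunoglobulin G, which restrains activating receptors. With EPA it stood at -0.40 on array 1 and -0.30 on array 2, and with DHA at -0.089 and -0.39. It was below control throughout, by -0.35 ± 0.05 with EPA and -0.24 ± 0.15 with DHA, and reached 1.3-fold on both arrays of neither swap. By the less negative EPA array Fcgr2b ranked 36 from the bottom of the 9653 genes, lower than Lyz2. With DHA it ranked 934 by that measure.

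Cd14 encodes the coreceptor that hands lipopolysaccharide to TLR4. It stood at -0.23 and -0.090 on EPA arrays 1 and 2 and at -0.29 and -0.11 on DHA arrays 1 and 2. C1qb encodes a chain of C1q, the recognition protein of the classical complement pathway. It stood at -0.11 and -0.18 on EPA arrays 1 and 2 and at -0.35 and -0.066 on DHA arrays 1 and 2. Both genes had small negative values that lie inside the bulk of all probes: Cd14 ranked between the 13.4th and 28.5th percentile of an array and C1qb between the 12.6th and 31.6th.

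Cd68 encodes a glycoprotein of late endosomes and lysosomes that is used as a general macrophage marker. With EPA it stood at -0.23 on array 1 and 0.28 on array 2, and with DHA at -0.052 and 0.18. Its sign turned with the dye in both swaps, and its means of 0.025 ± 0.26 and 0.062 ± 0.11 are smaller than their errors. With each fatty acid 7 of the 8 genes, all but Cd68, lay below 0 on both arrays, where 22.9% of all named genes did with EPA and 24.4% with DHA. Since the genes were chosen by these ratios, nothing is read from that contrast.

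Values were lower on the array with the fatty acid in Cy5 for most probes. With EPA 8 of the 10 probes were lower on array 1 than on array 2, the exceptions being C1qb and Tyrobp, and with DHA 9 of 10 were, the exception being Fcgr2b. Of all 20500 probes 49.8% were lower on array 1 with EPA and 53.0% with DHA. Since the low ratios on arrays 1 helped to choose these genes, nothing is read from the difference. A dye bias enters the arrays of a swap with opposite sign. With opposite signs, 27 genes with EPA and 5 with DHA passed 1.5-fold on each array, and all of them were below 0 on array 1. None of the 8 myeloid genes was among them, and since those 8 were chosen by these same ratios, nothing is read from that. Among the 27, Col1a2, Fn1 and Bgn had the same value on EPA array 1, -0.767102, and Tagln had -0.766206. On DHA array 1 these genes all stood at -0.428. What set such shared values was not tested, and they enter the fibroblast and smooth muscle lists below.

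EPA and DHA were set side by side within a dye orientation, where a shared dye bias cancels. No label tells if they share a control RNA. Of the 10 probes 6 had a lower value with DHA than with EPA in both orientations, as did 26.0% of all probes, and 0 had a lower value with EPA in both (31.8% of all probes). The 6 were both probes of Mmp12 and probe 13504 of Lyz2, with Ceacam4, Tyrobp and Cd14. For Ceacam4 EPA exceeded DHA by 0.15 on arrays 1 and 0.21 on arrays 2, and for Mmp12, averaged over its probes, by 0.21 and 0.16. These differences are small beside the distance of both genes from control. For Tyrobp the difference was 1.64 on arrays 1 and 0.24 on arrays 2. Probe 18692 of Lyz2 went the other way on arrays 1, at -0.32, and C1qb, Fcgr2b and Cd68 differed in sign between orientations. With 1 sample per fatty acid the difference between EPA and DHA was not tested.

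**Figure D3:**
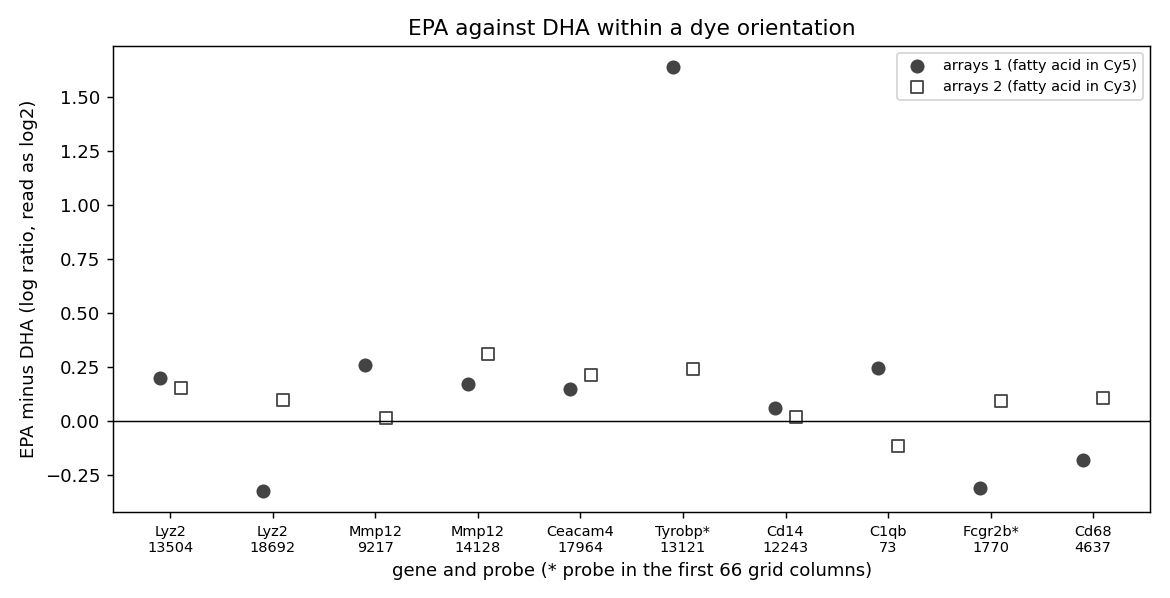
Log ratio with EPA minus that with DHA (read as log2) for the 10 probes, from arrays 1 (filled circles) and arrays 2 (open squares); values above 0 mean a lower ratio with DHA. Ceacam4 lies at 0.15 and 0.21, and Tyrobp at 1.64 on arrays 1 and 0.24 on arrays 2.

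Genes with other roles in the same cells were taken from 8 lists, of which 105 genes besides the 8 had a probe. Their median was -0.0039 with EPA and -0.039 with DHA, against -0.0012 and 0.00021 for all named genes. With EPA 0 of the 105 were at least 1.3-fold lower on both arrays and 0 were higher, against 0.0829% and 0.176% of all genes. With DHA 1 was lower, C1s, and 0 were higher, against 0.238% and 0.145%. Below 0 on both arrays were 25 of the 105 (23.8%) with EPA, near the 22.9% of all genes, and 39 (37.1%) with DHA against 24.4%. Leaving out genes with a probe in the first 66 columns, 17 of 66 (25.8%) lay below 0 on both arrays with EPA and 19 of 66 (28.8%) with DHA, against 23.6% and 21.4% of the 6096 named genes outside those columns.

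Among Fc receptors and ITAM signalling, 7 genes besides Tyrobp and Fcgr2b were measured, of which 0 were lower at 1.3-fold on both arrays of either swap. Their median was 0.055 with EPA and -0.17 with DHA, and 4 of the 7 have a probe in the first 66 columns. The other 3 had a median of -0.14 with EPA and -0.15 with DHA. Below 0 on both arrays were 2 of the 7 with EPA (28.6%, against 22.9% of all genes) and 6 with DHA (85.7%, against 24.4%). The median of all probes in the first 66 columns was itself below 0 on DHA arrays 1 and 2, at -0.12 and -0.076. Of the 3 genes outside those columns, 2 lay below 0 on both arrays with EPA and 3 with DHA. Of all genes there 23.6% did with EPA and 21.4% with DHA. Trem2, a lipid-sensing receptor that signals through Tyrobp, stood at -0.28 and -0.25 on EPA arrays 1 and 2 and at -0.13 and -0.11 on DHA arrays 1 and 2. Fcgr1a, the high-affinity Fc receptor, was at -0.15 ± 0.11 with EPA and -0.17 ± 0.12 with DHA. Both genes were named after their values were seen.

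In the complement list 14 genes besides C1qb were measured, and their median was -0.062 with EPA and -0.12 with DHA. C1s, a protease in one complex with C1q that fibroblasts also make, stood at -0.11 and -0.21 on EPA arrays 1 and 2 and at -0.57 and -0.41 on DHA arrays 1 and 2. It was the one gene of the 8 lists outside the 8 myeloid genes at 1.3-fold lower on both arrays of a swap. C1qc, which encodes a partner chain of C1qb and is normally made with it, was at 0.091 ± 0.07 with EPA and 0.010 ± 0.11 with DHA, so with EPA the chains lay on different sides of 0 and with DHA C1qc was within its half-difference of 0.

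For lipopolysaccharide recognition 5 genes besides Cd14 were measured, and their median was -0.0039 with EPA and -0.018 with DHA. Tlr2, a receptor that also works with Cd14, was at -0.023 ± 0.07 and -0.018 ± 0.10. The median of the 18 lysosomal genes besides Cd68 was -0.0016 with EPA and -0.086 with DHA, and 8 of them have a probe in the first 66 columns; without those the median was -0.025 with DHA. In neither list was a gene 1.3-fold lower or higher on both arrays of a swap.

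Mmp12 was chosen for its low values, so its distance from its protease list is a description only. The other 13 genes had a median of -0.043 with EPA and -0.041 with DHA, and 0 of them passed 1.3-fold on both arrays of either swap. Of the 13, 3 have a probe in the first 66 columns, Timp2 and Mmp14 among them. With DHA Timp2 had a lower mean than Mmp12, at -0.89 ± 0.99, and Mmp14 was at -0.52 ± 0.52. Both of these means came from array 1. Mmp9, a gelatinase of macrophages and neutrophils, was at -0.058 ± 0.11 and 0.011 ± 0.10, and Mmp13, a collagenase, at -0.14 ± 0.02 and 0.049 ± 0.08. Ceacam4 was likewise chosen for low values. The 7 other measured genes of its family had a median of -0.0062 with EPA and 0.066 with DHA, though 4 of them have a probe in the first 66 columns. Ceacam1, the most widely expressed member, was at -0.072 ± 0.03 and 0.066 ± 0.07. No test of these contrasts is given.

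The macrophage lineage list, which holds none of the 8 genes, had 35 measured genes. Its median was 0.0061 with EPA and -0.0086 with DHA, and 0 of its genes were 1.3-fold lower or higher on both arrays of either swap. Cd163, a scavenger receptor of resident macrophages, was at -0.047 ± 0.02 with EPA and 0.065 ± 0.02 with DHA. Mrc1, the mannose receptor, was at 0.047 ± 0.12 and 0.077 ± 0.02, and Cybb, the catalytic subunit of the phagocyte oxidase, at 0.026 ± 0.034 and 0.098 ± 0.0061. Ptprc, the CD45 antigen of all leukocytes, was at -0.21 ± 0.03 and 0.047 ± 0.07. Csf1r, the receptor for the macrophage growth factor, was at -0.19 ± 0.33 and 0.028 ± 0.14, and its probe lies in the first 66 columns. The 5 were named after their values were seen, and each has a DHA mean above 0, which the list as a whole does not share. With DHA 14 of its 35 genes (40.0%) lay below 0 on both arrays and 6 above. Of the 9653 named genes 24.4% lay below and 2058 genes above with DHA. With EPA 6 of the 35 (17.1%) lay below and 2 above, against 22.9% and 2128 of the 9653. Outside the first 66 columns 6 of 22 (27.3%) lay below 0 on both DHA arrays and 4 above. Of the 6096 named genes there 21.4% lay below and 1167 genes above. The lowest DHA means were those of Folr2, a folate receptor of resident macrophages, at -0.72 ± 0.56, Ncf1, a subunit of the phagocyte oxidase, at -0.60 ± 0.45, and Coro1a, an actin-binding protein of leukocytes, at -0.36 ± 0.06. All 3 have a probe in the first 66 columns, and the part of those columns in the values was not tested. Apoe, which macrophages and other cells secrete, was at -0.33 ± 0.10 with EPA and -0.22 ± 0.13 with DHA. The name of macrophage genes rests on what the genes are known for, and for rat Ceacam4 no source used here shows expression in macrophages. In the wider macrophage list 0 of 35 genes were 1.3-fold lower on both arrays, where 0.0829% of all genes were with EPA and 0.238% with DHA. At such shares a list of 35 genes would hold few or none. Mmp12 and Ceacam4, which met this rule in each swap, were chosen for low values, so nothing is read from the contrast. The class II histocompatibility list, 6 genes of antigen presentation, had medians of -0.0070 and 0.0034, and its invariant chain gene Cd74 was at -0.012 ± 0.0073 and 0.011 ± 0.090.

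**Figure D4:**
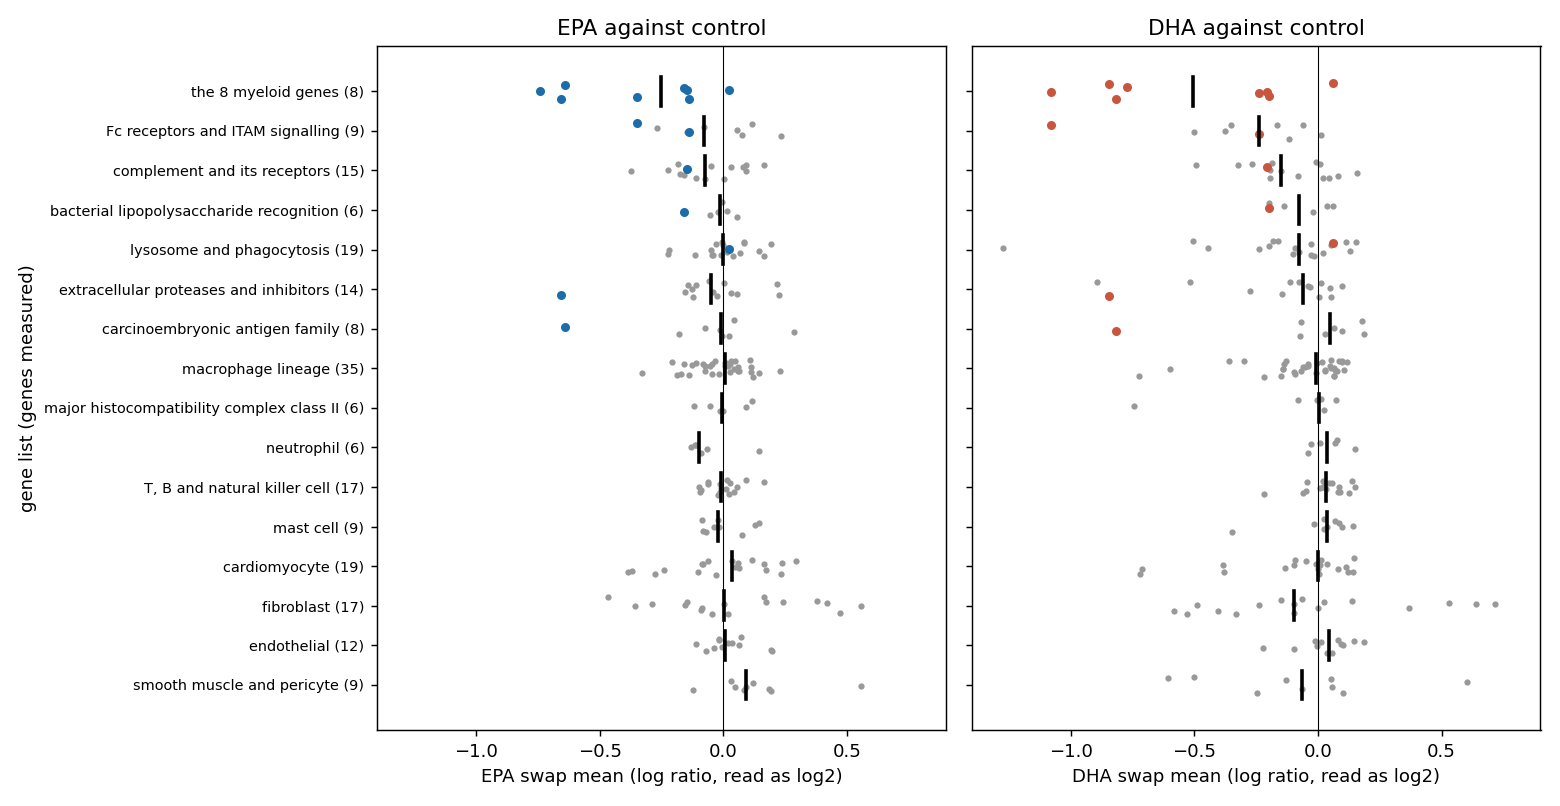
Swap mean (log ratio, read as log2) of each measured gene in the 8 myeloid genes, the 8 lists of related roles and 7 lists of other cell types, with EPA on the left and DHA on the right; coloured points are the 8 myeloid genes, grey points other genes and black bars list medians, the myeloid genes included. The lists of macrophage lineage and class II genes centre near 0 with both fatty acids.

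Markers of the other cells that such cultures can hold were taken beside these values. Medians with EPA and DHA were -0.099 and 0.038 over 6 neutrophil genes, -0.011 and 0.033 over 17 genes of T, B and natural killer cells, and -0.023 and 0.036 over 9 mast cell genes. They were 0.036 and -0.00098 over 19 cardiomyocyte genes and 0.0062 and 0.046 over 12 endothelial genes. The median of the 17 fibroblast genes was 0.0019 with EPA and -0.095 with DHA, with -0.40 on DHA array 1 and -0.059 on DHA array 2. The 9 genes of smooth muscle and pericytes had 0.093 and -0.065, with -0.40 and 0.088 on DHA arrays 1 and 2. In these 7 lists 0 genes were 1.3-fold lower or higher on both arrays of either swap. Of all genes 0.0829% were lower and 0.176% higher with EPA, and 0.238% and 0.145% with DHA. The part of other cell types in the ratios of Lyz2, Mmp12 and Ceacam4 was not tested.

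Likeness to the low genes was measured as the root mean square difference of gene means over the 4 arrays. The genes nearest to Mmp12 were Ceacam4 at 0.13, Lyz2 at 0.23 and Fmod, a matrix proteoglycan made by fibroblasts, at 0.27. Those nearest to Ceacam4 were Mmp12, Grem1 at 0.25 and Fmod at 0.26. Grem1, an antagonist of bone morphogenetic proteins, stood at -0.30 and -0.66 on EPA arrays 1 and 2 and at -0.66 and -0.71 on DHA arrays 1 and 2. Those nearest to Lyz2 were Mmp12, Cops5 at 0.29 and Ceacam4 at 0.33. Cops5, a subunit of the COP9 signalosome with a probe in the first 66 columns, was low on arrays 1, at -0.91 with EPA and -1.34 with DHA, and near 0 on arrays 2, at -0.017 and -0.056. Since the pairs share arrays and dyes, and few genes lie so far from 0, this likeness describes size and array only.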

How the data were processed

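Gene expression was measured in 4 two-colour Agilent rat arrays. The authors deposited 1 log ratio per feature and array, read here as log2; per the labels, expression ratios were assessed from Cy3- and Cy5-labelled cRNA. The scanner software, background correction and dye normalization were not given in the sources used here. Spot intensities were not used here, and the number of arrays limits the precision. Of 22575 features 20500 had a value on all 4 arrays. Probes were named from GEO's platform annotation, and 12720 of 12750 named probes took the current symbol of their gene ID from the GRCr8 gene table; 5 probes with several symbols and 7745 unlisted ones stayed unnamed. Array medians were set to 0 and probes averaged into 9653 genes. In a test over the series, limma 3.58.1 (R 4.3.3) compared the 2 swap means of each probe with 0 (Benjamini-Hochberg threshold 0.05): 0 of 20500 probes passed, the smallest adjusted p being 0.891, and 909 had an unadjusted p under 0.05. These p-values measure only the spread between 2 swaps, which may be technical and may share a control. The size rule and limma were tested on simulated data. The planted changes were larger than the swap mean of any member, so smaller changes were not covered. The members, lists and tests were chosen with earlier results of these data known. Named genes are the members, list genes at least 1.3-fold off on both arrays of a swap, genes as far lower on all 4 arrays, and the 3 genes most like each of Lyz2, Mmp12 and Ceacam4; other genes named were chosen after their values were seen. Same-numbered arrays share a dye orientation, not an extract, as far as the labels say. Alternatives were other centring, scaling and normalization, grid position, log base, fold threshold, direction, probe handling, and each array left out.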

Additional observations from a re-analysis of the deposited data

Results flagged for a closer look

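Of the values given for the genes and lists, 2 list medians lay on opposite sides of 0 with EPA and with DHA on both arrays of each swap, and neither difference was tested. The median of the 8 genes of the carcinoembryonic antigen family, Ceacam4 included, was -0.026 with EPA on array 1 and -0.072 on array 2, and 0.10 and 0.035 with DHA, a difference of -0.12. Of these 8 genes 4 have a probe in the first 66 columns; without the probes there the median came to -0.061 with EPA and 0.0016 with DHA. Ceacam4 was lower with DHA than with EPA, against the direction of that median. The median of the 6 neutrophil genes was -0.085 and -0.041 with EPA and 0.054 and 0.038 with DHA, a difference of -0.11. Of the 6 genes 3 have a probe in the first 66 columns; the other 3 had a median of -0.098 with EPA and -0.018 with DHA, on the same side of 0.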

How the results depend on the processing

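The count of 2 of the 8 genes lower with DHA at 1.5-fold was also 2 with values as deposited, with equal spread, with local medians removed, without the first 66 columns and with any probe of a gene. Quantile normalization gave 2 of the 8 genes lower with EPA and 1 with DHA, and 19 and 10 of all genes. Equal spread gave 1 gene lower with EPA among all. Read as log10 ratios, 4 of the 8 were lower with each fatty acid, and 248 and 343 of all genes. At 1.3-fold the counts were 2 and 4 of the 8, and 8 and 23 of all. Read as Cy5 over Cy3, 0 of the 8 were lower with DHA, and 27 of all genes were lower with EPA. Leaving out 1 array and applying the threshold to the other gave 0 to 3 of the 8 and 11 to 139 of all genes with EPA, and 2 to 4 of the 8 and 7 to 919 of all with DHA. The 919 are those without DHA array 2, that is, on DHA array 1 alone. Limma passed 0 probes over the 4 arrays with and without the replicate block (the replicate number, which is the dye orientation), 0 with each array left out, and 2 without the first 66 columns. Of the probes' swap means under these alternatives 21 moved by more than the spread (standard deviation) of the 2 arrays and 135 did not. Of the 21, 13 moved under the Cy5 over Cy3 reading and 7 under quantile normalization. Leaving out an array moves a probe's mean by less than that spread by construction. The 135 therefore include 10 entries for each array left out that could not count as moved. The sign differed from the main one for 5 means under the Cy5 over Cy3 reading, 1 without EPA array 2 and 1 without DHA array 2. The 2 probes called lower, both with DHA, kept their sign, which leaving out an array could not have turned. Of the list medians 53 moved and 203 did not. The causes of these shifts were not tested beyond what each alternative's construction shows.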

Other observations

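Probe 13430, which the annotation does not name and which lies outside the first 66 columns, was at least 1.3-fold lower on both arrays of each swap. It stood at -0.58 and -0.41 on EPA arrays 1 and 2 and at -0.52 and -0.56 with DHA. Probe 1539, also unnamed but inside those columns, stood at -0.45 and -0.75 with EPA and at -1.49 and -0.78 with DHA.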
